A study of Mus musculus with 8 samples.

Results

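The expression of 8 genes that move glutamate and GABA across membranes or recycle them was examined nucleus type by nucleus type in the mouse hippocampus. The genes were Slc1a1, Slc1a2, Slc1a3, Slc6a11, Glul, Slc17a6, Slc17a7 and Slc32a1, taken by their symbols from the 30211 genes of the deposited matrices, and all 8 had at least 1 unique molecular identifier (UMI, a tag that marks 1 captured RNA molecule) in each of the 8 libraries. Each library held nuclei of the hippocampus of 1 mouse, of strain C57BL/6 in the labels and of the C57BL/6N background in the study's methods. The WT group had 3 wild-type mice and the GKO group 3 mice with a constitutive knockout of Gsap, made by crossing mice with floxed exons 9 to 11 to a CMV-Cre line, and these 6 mice were 7 months old. The J20;WT and J20;GKO groups had 1 mouse each, 6 months old, and both carried the J20 transgene, a mutant human APP driven by the PDGFB promoter, with Gsap intact or knocked out. No group other than these enters the report, and no treatment was given in the labels.

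Glutamate released by excitatory neurons is cleared from the extracellular space by carriers of the Slc1a family. Astrocytes convert much of it to glutamine with glutamine synthetase and pass the glutamine back to neurons, which make glutamate from it again, and inhibitory neurons turn part of that glutamate into GABA. Inside nerve terminals, separate carriers load the transmitter into synaptic vesicles, and which of them a neuron expresses is widely used to tell glutamatergic from GABAergic neurons. In the hippocampus, clearance by astrocytes shapes how long glutamate acts at its receptors.

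After the filter on nuclei, 32041 nuclei were kept, 2731 to 5252 a library, with 21020159 to 43310978 UMIs a library and a median of 4579 to 6438.5 UMIs a nucleus. Clusters were rebuilt without the 8 genes, 26874 nuclei took 1 of 22 names from their markers, each written here with "-like", and 5167 stayed unnamed. In 17 of the 22 types every library held at least 10 nuclei. The names are rebuilt and are not the authors' annotation. The nuclei included cortex-like neurons (1600 of an upper-layer and 628 of a deep-layer type) and choroid plexus-like cells, so the tissue was not hippocampus proper alone. All 10 astrocyte markers and all 9 inhibitory markers had UMIs in their own type, 9 of the 10 and 8 of the 9 were highest there, and all 10 excitatory markers were highest in the excitatory types. Every listed marker of dentate granule-like (8), mossy cell-like (5) and deep-layer cortex-like neurons (9) was highest there among excitatory types. This held for 4 of 6 in CA1-like, 4 of 6 in subiculum-like and 3 of 5 in upper-layer cortex-like neurons. In CA2/CA3-like neurons it held for 3 of 5 CA2 and 5 of 7 CA3 markers. Of the Lamp5-like nuclei, 191 came from a subcluster with 3 of 6 markers raised and 89 from one with 6 of 6. Gsap itself lay between 19.8 and 23.0 CPM (UMI counts scaled to a common total) in every library, GKO included. Which part of Gsap these UMIs come from was not examined, so this level checks no genotype. The deposited names carry 3 dates whose meaning is not stated: WT mouse 1 and GKO mouse 1 share the first, J20;WT stands alone on the third, and the other 5 libraries share the second. Xist, which is made from the inactive X chromosome, was high in WT mouse 1, GKO mouse 1 and the J20;GKO mouse, and Ddx3y, a gene of the Y chromosome, in the other 5. Levels are the CPM of a gene among the UMIs of a type in a library, given as mean ± SD over the 8 libraries unless stated. The 5 types with fewer than 10 nuclei in some library are given as pooled CPM where they appear. Folds between types are geometric means of the ratios within each library. Because RNAs of different genes are captured with different success, levels are compared between types for 1 gene, not between genes.

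**Figure D1:**
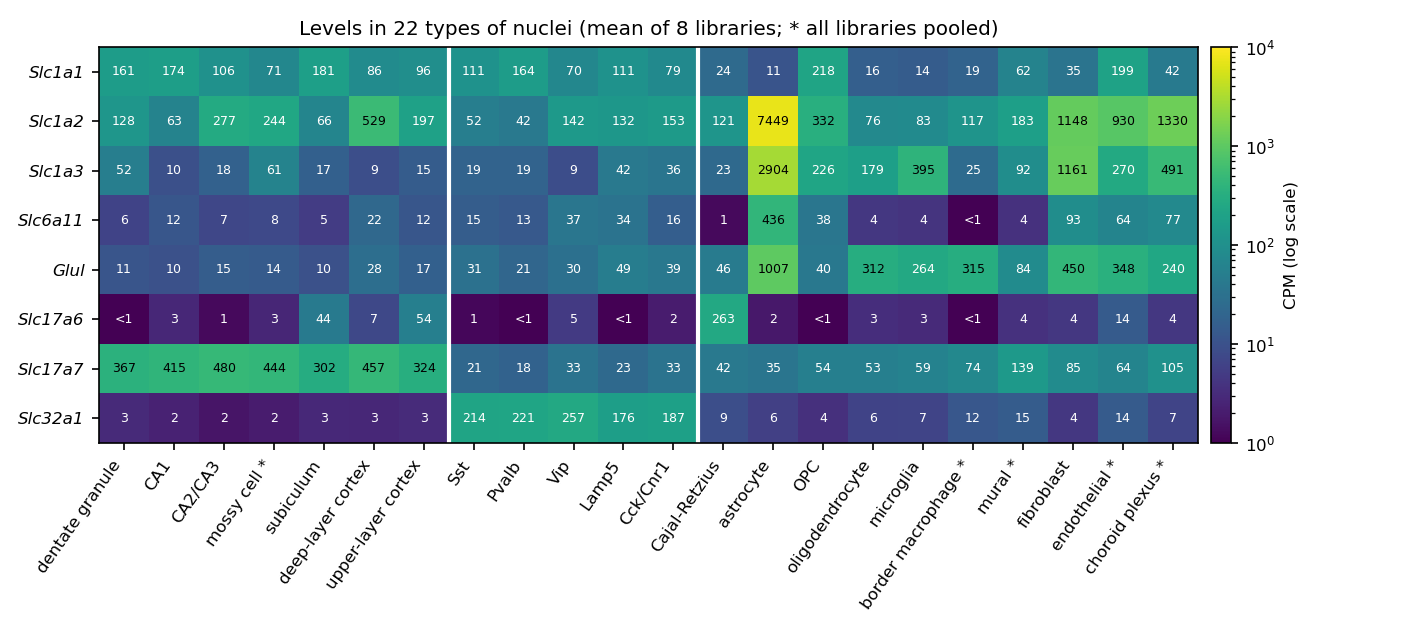
CPM of the 8 genes (rows) in the 22 types of nuclei (columns) on a logarithmic colour scale, with the mean over 8 libraries printed in each cell and, for types marked with an asterisk, the pooled value. White lines divide excitatory types, inhibitory types and the rest. Slc1a2 reached 7449 CPM in astrocyte-like nuclei, while Slc17a6 stood at 263 CPM in Cajal-Retzius-like nuclei and near 0 in most types.

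Most members were held by few types. Slc1a2, Slc1a3, Slc6a11 and Glul were highest in astrocyte-like nuclei, Slc1a1 was spread over neurons and OPC-like nuclei, and of the vesicular carriers Slc17a7 was highest in excitatory, Slc32a1 in inhibitory and Slc17a6 in Cajal-Retzius-like neurons. Astrocyte-like nuclei, 7.99% of the nuclei, held 58.5 ± 4.08% of the Slc1a2 UMIs of a library, 60.9 ± 5.99% of those of Slc1a3, 55.3 ± 5% of those of Slc6a11 and 44.0 ± 5.83% of those of Glul (SD, n = 8). Excitatory neuron-like nuclei held 71.7 ± 3.36% of the Slc17a7 UMIs and 62.7 ± 4.35% of those of Slc1a1. They were 36.1% of the nuclei and held 131410361 of the 243887863 UMIs of all genes, so the Slc1a1 share should be read beside these.

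Slc1a2 encodes GLT1, the main glutamate carrier of the forebrain, and lies at chr2:102658659-102790784, plus strand (build GRCm38). Its level in astrocyte-like nuclei was 8126, 7166 and 7098 CPM in the WT mice, 8635, 7157 and 6839.7 CPM in the GKO mice, 7184 CPM in the J20;WT mouse and 7388 CPM in the J20;GKO mouse. The libraries lay close together there, and the groups overlapped. The mean of 7449 ± 609 CPM (SD, n = 8) was 14.2-fold the 529 ± 88.7 CPM of deep-layer cortex-like neurons, the highest neuronal type with a value in every library. After each nucleus was thinned to 2000 UMIs, 99.8% of astrocyte-like nuclei had a Slc1a2 UMI, with an exact binomial 95% interval of 99.5 to 99.9%, and 99.8% had one without thinning at a median depth of 3648 UMIs. Intervals on shares of nuclei cover counting error only.

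Among neurons, the level of Slc1a2 depended on the type. CA2/CA3-like neurons had 281, 300.2 and 219 CPM in the WT mice, 341, 234 and 272 CPM in the GKO mice, 313 CPM in the J20;WT mouse and 255 CPM in the J20;GKO mouse. In CA1-like neurons the values were 68.1, 73.1 and 64.9 CPM in the WT mice, 51.1, 55.1 and 56.6 CPM in the GKO mice, 71.6 CPM in the J20;WT mouse and 60.6 CPM in the J20;GKO mouse. No CA1-like value reached a CA2/CA3-like one, and the mean log2 difference within a library was 2.13 ± 0.28 (SD, n = 8), or 4.38-fold, with CA2/CA3-like neurons higher in 8 of 8 libraries. Deep-layer cortex-like neurons stood a further 1.90-fold above CA2/CA3-like ones, also in 8 of 8. Upper-layer cortex-like neurons followed at 197 ± 31.5 CPM. Next came Cck/Cnr1-like (153 ± 114 CPM), Vip-like (142 ± 42.5 CPM), Lamp5-like (132 ± 111 CPM), dentate granule-like (128 ± 20.8 CPM) and Cajal-Retzius-like ones (121 ± 51.9 CPM). Subiculum-like ones, at 66.3 ± 15.0 CPM, overlapped those of CA1. Thinned nuclei with a Slc1a2 UMI made up 40.4% of CA2/CA3-like, 54.8% of deep-layer cortex-like and 10.7% of CA1-like neurons, against 13.3% of oligodendrocyte-like nuclei. The unthinned shares were 88.8%, 93.6%, 48.2% and 15.8% at median depths of 19150, 10430, 12180 and 2196 UMIs.

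Free RNA released from astrocytes could leave Slc1a2 in any nucleus, so each level was set beside the 10 astrocyte markers. In CA2/CA3-like neurons Slc1a2 stood at 3.72 ± 0.461% of its astrocyte-like level (SD, n = 8), while the median astrocyte marker stood at 0.543% of its own. In deep-layer cortex-like neurons the pair of values was 7.15 ± 1.43% and 0.571%, and in upper-layer cortex-like ones 2.66 ± 0.479% and 0.75%. Slc1a2 exceeded the median marker in 8 of 8 libraries in these 3 types. It also did so in dentate granule-like (1.73% against 0.545%), subiculum-like (0.889% against 0.528%), Lamp5-like, Cck/Cnr1-like and Cajal-Retzius-like neurons. In Vip-like neurons it was above in 7 of 8, in CA1-like and Sst-like ones in 6 of 8, and in Pvalb-like ones in 5 of 8. Oligodendrocyte-like nuclei gave 1.02 ± 0.29% against 0.944%, with Slc1a2 above the marker in 4 of 8 libraries, and microglia-like nuclei gave 1.11 ± 0.273% against 0.972%, above in 5 of 8. The Slc1a2 of these last types was close to the median marker. OPC-like nuclei, at 332 ± 25.4 CPM, gave 4.49 ± 0.482% against 2.15%, above in 8 of 8.

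Slc1a3 encodes GLAST, the other astrocytic glutamate carrier, at chr15:8634124-8710764, minus strand. In astrocyte-like nuclei its levels were 2748, 2831 and 2719 CPM in the WT mice, 2762, 3246 and 2911 CPM in the GKO mice, 3154 CPM in the J20;WT mouse and 2857 CPM in the J20;GKO mouse. The mean was 2904 ± 195 CPM (SD, n = 8), and 98.6% of thinned astrocyte-like nuclei had a UMI of it, 98.5% together with one of Slc1a2. The 2 carriers parted outside astrocyte-like nuclei. Microglia-like nuclei had 610.2, 269 and 168 CPM in the WT mice, 711, 459.6 and 250.1 CPM in the GKO mice, 328 CPM in the J20;WT mouse and 368 CPM in the J20;GKO mouse. Libraries differed widely, with WT mouse 1 and GKO mouse 1 the highest of their groups, and WT and GKO mice overlapped. At 13.7 ± 6.86% of the astrocyte-like level they lay far above the median astrocyte marker at 0.972%, in 8 of 8 libraries, and 48.9% of thinned microglia-like nuclei had a UMI (1106 nuclei under 2000 UMIs left out), against 47.5% unthinned. Oligodendrocyte-like nuclei had 179 ± 40.3 CPM, or 6.12 ± 1.14% of the astrocyte-like level, and OPC-like nuclei 226 ± 54.7 CPM.

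The neuronal pattern of Slc1a3 also differed from that of Slc1a2. Dentate granule-like neurons had 52.1 ± 12.4 CPM and CA1-like ones 9.63 ± 3.20 CPM (SD, n = 8), a 5.33-fold difference found in 8 of 8 libraries. In dentate granule-like neurons Slc1a3 exceeded the median astrocyte marker in 8 of 8 libraries (1.79 ± 0.399% against 0.545%), and in CA1-like neurons in 0 (0.332 ± 0.112% against 0.562%). The 10 astrocyte markers summed to a mean of 614 CPM in dentate granule-like and 67.3 CPM in CA1-like neurons. The median marker differed little between these 2 types, so the sums do not stand for all 10 markers. Which markers held the sums was not examined, and their part in this difference was not tested. Counted as Slc1a2 UMIs per Slc1a3 UMI, pooled over the libraries, the ratio was 2.58 in astrocyte-like nuclei (2.21 to 3.13 by library), 0.206 in microglia-like (0.125 to 0.382), 0.479 in oligodendrocyte-like (0.179 to 0.983), 15.7 in CA2/CA3-like (10.3 to 20.2) and 57.8 in deep-layer cortex-like nuclei (27.4 to 214). The ranges of these 4 types did not overlap that of astrocyte-like nuclei. In dentate granule-like neurons the ratio was 2.37 (1.92 to 6.30), which overlapped it. The deep-layer cortex-like ratio rests on 72 Slc1a3 UMIs, and its highest value, in the J20;GKO mouse, on 1. Slc1a3 stood there at 0.316 ± 0.170% of its astrocyte-like level, against 0.571% for the median marker, above in 2 of 8 libraries. In CA2/CA3-like neurons it was 0.613 ± 0.118% against 0.543%, above in 7 of 8.

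Glul encodes glutamine synthetase, which makes glutamine from glutamate and ammonia, and lies at chr1:153899944-153909723, plus strand. Astrocyte-like nuclei had 1034, 1055 and 968 CPM in the WT mice, 1261, 1137 and 973 CPM in the GKO mice, 719.6 CPM in the J20;WT mouse and 907 CPM in the J20;GKO mouse. The 2 J20 mice were the lowest of the 8. Oligodendrocyte-like nuclei had 343, 355 and 291 CPM in the WT mice, 332, 344 and 341 CPM in the GKO mice, 199 CPM in the J20;WT mouse and 295 CPM in the J20;GKO mouse, again lowest in the J20;WT mouse, and microglia-like nuclei had 264 ± 71.3 CPM (SD, n = 8). The order of the means was astrocyte-like, fibroblast-like, oligodendrocyte-like and microglia-like. Astrocyte-like nuclei were higher than each of the other types in 8 of 8 libraries, while oligodendrocyte-like and microglia-like nuclei overlapped, the former higher in 7 of 8. These 2 levels were 31.1 ± 3.04% and 26.0 ± 4.18% of the astrocyte-like level. The median astrocyte marker stood at 0.944% and 0.972%, below Glul in 8 of 8 libraries in both types, and the part of free RNA was not tested. Thinned nuclei with a UMI made up 44.1% of oligodendrocyte-like, 38.3% of microglia-like and 82.0% of astrocyte-like nuclei (47.9%, 39.1% and 90.9% unthinned). In all 5 inhibitory types, all 6 excitatory types with a value in every library, and Cajal-Retzius-like and OPC-like nuclei, the mean level of Glul was under 50 CPM.

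Slc6a11 encodes GAT3, which carries GABA back into astrocytes, and lies at chr6:114131241-114249952, plus strand. Its level in astrocyte-like nuclei was 463, 415 and 486 CPM in the WT mice, 386, 396 and 452 CPM in the GKO mice, 462 CPM in the J20;WT mouse and 426 CPM in the J20;GKO mouse. With 436 ± 35.3 CPM (SD, n = 8) this was 11.6-fold the level of OPC-like nuclei, at 37.7 ± 7.79 CPM, and 54.8% of thinned astrocyte-like nuclei had a UMI. Among neurons, Vip-like (37.2 ± 21.3 CPM) and Lamp5-like nuclei (33.5 ± 8.60 CPM) were highest, without a gap between them. Summed over types, inhibitory neuron-like nuclei were 2.19-fold above excitatory ones (20.6 ± 5.15 CPM and 8.93 ± 1.30 CPM) in 8 of 8 libraries. In oligodendrocyte-like and microglia-like nuclei it stood at 1.02 ± 0.576% and 0.931 ± 0.758% of the astrocyte-like level, as the median astrocyte marker did.

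**Figure D2:**
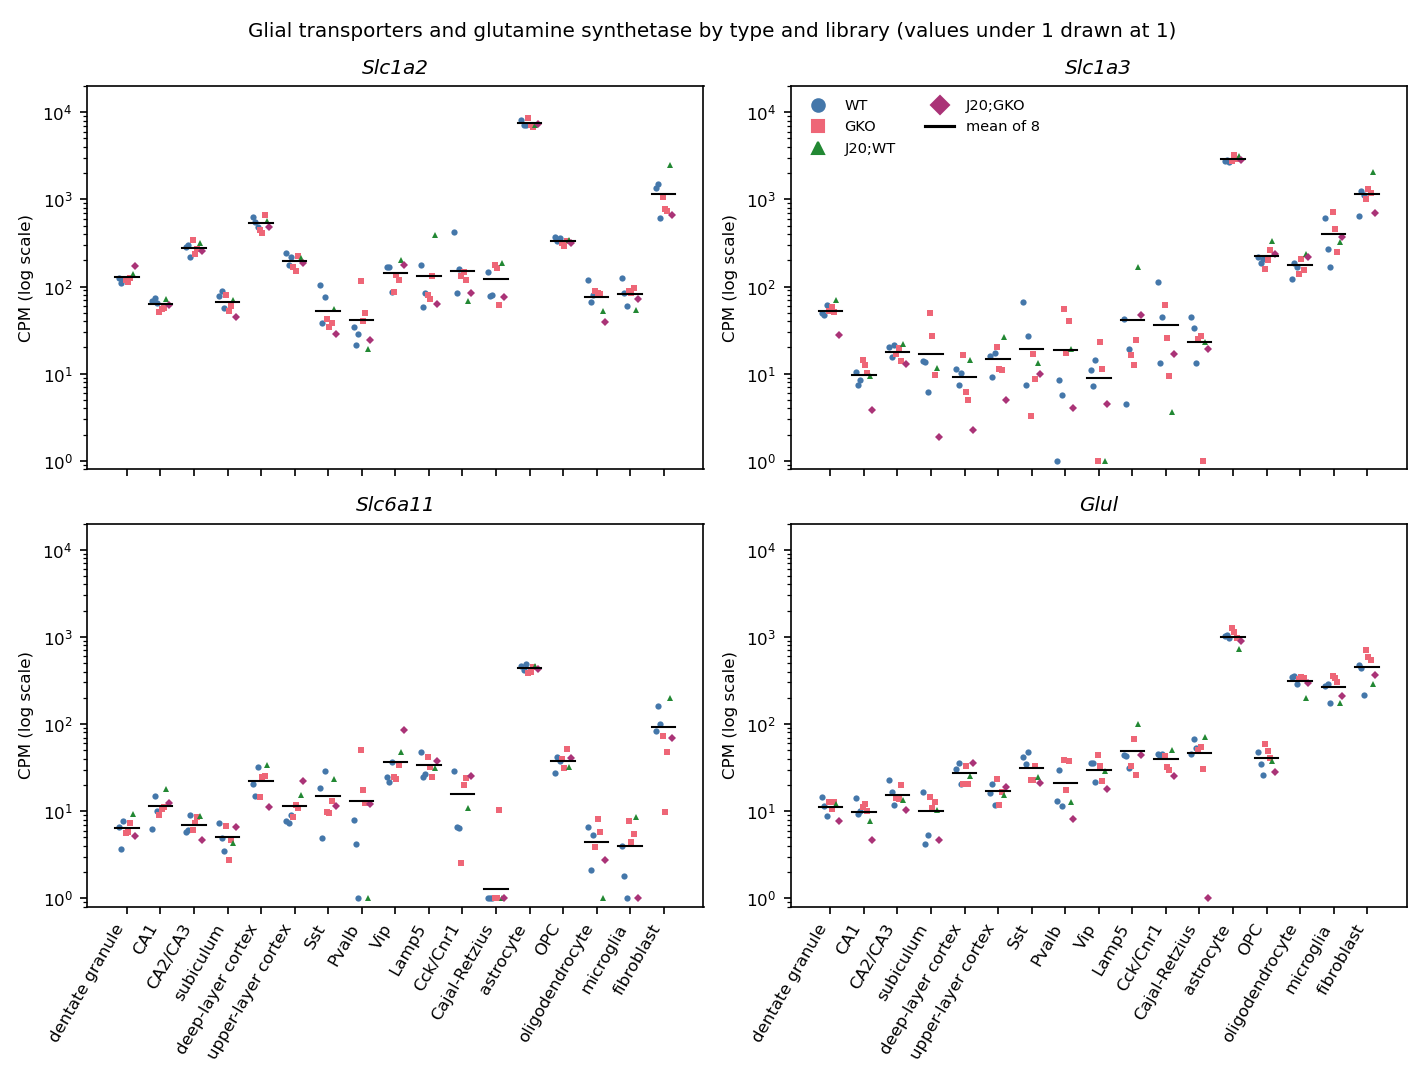
CPM on a logarithmic axis of Slc1a2, Slc1a3, Slc6a11 and Glul in the 17 types with at least 10 nuclei in every library, 1 point a library coloured by group, with the mean of 8 as a bar. Points of an astrocyte-like column sit together for each gene, while Slc1a3 in microglia-like nuclei ran from 168 to 711 CPM.

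Fibroblast-like nuclei (292 in all) came after astrocyte-like ones for all 4 genes among the 17 types, at 1148 ± 632 CPM for Slc1a2, 1161 ± 439 CPM for Slc1a3, 450.3 ± 159 CPM for Glul and 93.0 ± 61.5 CPM for Slc6a11 (SD, n = 8). The UMIs of Slc1a2 were held by few of these nuclei: 88.0% lay in 29 nuclei, against 42.8% of the Slc1a3 and 39.6% of the Glul UMIs in the 29 highest nuclei of each gene. All 10 astrocyte markers had UMIs in this type, their median stood at 21.9% of its astrocyte-like level, their summed level ran from 2771 to 6090 CPM by library, and their part in these levels was not tested. Choroid plexus-like nuclei (237) had 1330.2 CPM of Slc1a2 pooled over libraries, with the median marker at 15.7%. With the 8 genes left in the clustering, the log2 difference between astrocyte-like and fibroblast-like nuclei was 6.25 for Slc1a2 in place of 2.85, and 6.28 for Slc6a11 in place of 2.60.

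Astrocyte-like nuclei were not uniform. A subcluster of 123 nuclei with high Gfap, the intermediate filament of reactive and fibrous astrocytes, had 1518 ± 319 CPM of Glul and 1970.5 ± 349.9 CPM of Slc1a3 (SD, n = 5 libraries with at least 10 nuclei). The main subcluster of 2465 nuclei had 992 ± 158 CPM and 2925 ± 211 CPM (SD, n = 8). Slc1a2 differed by less than its spread, at 8553 ± 1802 CPM and 7428 ± 580.5 CPM, and Slc6a11 stood at 335 ± 37.6 CPM and 443 ± 36.0 CPM. Another subcluster, of 50 nuclei with Tfap2c and Adgrv1 among its leading genes, had more Slc1a3 and less Slc1a2 than the main one, with pooled levels of 4599.8 CPM for Slc1a3, 5404 CPM for Slc1a2 and 439.6 CPM for Glul. These subclusters were built from the same nuclei, so the differences are a description.

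Slc1a1 encodes EAAC1, the glutamate carrier known from neurons, and lies at chr19:28835049-28913960, plus strand. OPC-like nuclei had the highest level, at 243, 223 and 223 CPM in the WT mice, 203, 188 and 229 CPM in the GKO mice, 247 CPM in the J20;WT mouse and 184 CPM in the J20;GKO mouse. Subiculum-like neurons had 149.7, 182 and 191 CPM in the WT mice, 206, 169.7 and 208 CPM in the GKO mice, 174 CPM in the J20;WT mouse and 165 CPM in the J20;GKO mouse. The 2 types overlapped, with OPC-like nuclei higher in 7 of 8 libraries. CA1-like (174 ± 16.6 CPM), Pvalb-like (164 ± 25 CPM) and dentate granule-like neurons (161 ± 16.7 CPM) followed without a gap. The first step found in 8 of 8 libraries came below them, to Lamp5-like nuclei at 111 ± 15.0 CPM (SD, n = 8). Values of dentate granule-like and Lamp5-like nuclei still overlapped between libraries. Per nucleus the order of the first pair turned. The log2 difference in mean Slc1a1 UMIs a nucleus, OPC-like minus subiculum-like, was -1.67, with median depths of 4395 and 16710 UMIs. Oligodendrocyte-like, microglia-like and astrocyte-like nuclei were the lowest 3 of the 17 types, at 16.1, 14.4 and 10.8 CPM, and in each the mean level relative to excitatory neurons was below that of the median excitatory marker (7.63 ± 2.51% against 8.19% in astrocyte-like nuclei). In OPC-like nuclei it was 152 ± 19.4% against 15.6%, and in Pvalb-like ones 115 ± 19.6% against 5.78%.

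A further gene, 4430402I18Rik, overlaps Slc1a1 on the opposite strand, and it followed Slc1a1 over the types, with 236 ± 40.9 CPM in OPC-like and 233 ± 45.5 CPM in CA1-like nuclei. Whether the counting used strand is not given in the sources used here, so reads of this pair cannot be told apart with certainty. Teddm2, Gm13872 and Gm14205 overlap Glul, Slc1a2 and Slc32a1 in the same way. Gm13872 had 48.5 ± 8.44 CPM in astrocyte-like nuclei, Teddm2 was highest in deep-layer cortex-like neurons at 89.4 ± 23.1 CPM, and Gm14205 stayed under 1 CPM in every type.

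Slc17a7 encodes VGLUT1, which fills vesicles with glutamate in most cortical and hippocampal principal cells, and lies at chr7:45163949-45176142, plus strand. CA2/CA3-like neurons had 458, 551 and 499 CPM in the WT mice, 423, 538 and 460.1 CPM in the GKO mice, 381 CPM in the J20;WT mouse and 532 CPM in the J20;GKO mouse, and dentate granule-like ones 335, 361 and 406 CPM in the WT mice, 287, 396 and 354 CPM in the GKO mice, 292 CPM in the J20;WT mouse and 507 CPM in the J20;GKO mouse. WT mouse 1 and GKO mouse 1 were the lowest of their groups in both types. The 6 excitatory types with a value in every library lay between 302 and 480.1 CPM on average, neighbours in that order overlapped, and CA2/CA3-like were above dentate granule-like neurons in 8 of 8 libraries (1.32-fold). The other types with a value in every library stood at 18 to 85 CPM. In OPC-like nuclei Slc17a7 reached 14.3 ± 5.28% of the excitatory level and the median excitatory marker 15.6%, and in microglia-like nuclei 15.6 ± 5.71% and 17.1%. Mural-like nuclei, with 38 UMIs in all, had 139 CPM pooled over libraries and gave 35.4 ± 13.8% against 20.0%, above in 6 of 6 libraries. A Slc17a7 UMI was found in 12.3% of thinned microglia-like and 58.3% of thinned CA1-like nuclei, and unthinned in 10.4% and 97.9%.

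Slc17a6 encodes VGLUT2, the vesicular glutamate carrier known from thalamic and other subcortical neurons, and lies at chr7:51622006-51671119, plus strand. Cajal-Retzius-like nuclei, of neurons that persist from early development, had 168, 179 and 376 CPM in the WT mice, 228, 281 and 235 CPM in the GKO mice, 234 CPM in the J20;WT mouse and 400.5 CPM in the J20;GKO mouse. The values spread widely, on 171 UMIs in 215 nuclei, and the groups overlapped. The mean of 263 ± 85.3 CPM was 5.28-fold that of upper-layer cortex-like neurons (54.2 ± 32.0 CPM) and was above it in 8 of 8 libraries. Subiculum-like neurons had 44.4 ± 14.5 CPM (SD, n = 8), deep-layer cortex-like ones 7.45 CPM, and every other type with a value in each library under 5 CPM. Within the upper-layer cortex-like neurons, a subcluster with Pdzrn3 and Cux2 among its leading genes had 78.9 ± 37.8 CPM and one led by Cbln4 had 16.6 ± 12.1 CPM.

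The share of Slc17a6 in the summed UMIs of Slc17a6 and Slc17a7 ran over a wide range in the glutamatergic types. It was 86.5 ± 11.5% in Cajal-Retzius-like nuclei, where single libraries ran from 62.5 to 100%. Upper-layer cortex-like neurons had 13.8 ± 6.35% (7.93 to 25.4%) and subiculum-like ones 12.6 ± 2.35% (9.76 to 16.4%), which overlapped. The share was 1.62 ± 0.853% in deep-layer cortex-like, 0.66 ± 0.501% in CA1-like, 0.275 ± 0.186% in CA2/CA3-like and 0.209 ± 0.155% in dentate granule-like neurons (SD, n = 8), and the libraries of CA1-like neurons overlapped those of the other 3. Thinned Cajal-Retzius-like nuclei had a Slc17a6 UMI in 40.4% of cases and a Slc17a7 UMI in 4.37%. The latter share was not above that of astrocyte-like nuclei, at 7.02%. Unthinned, the 3 shares were 48.8%, 8.37% and 12.8%, at median depths of 2935 and 3648 UMIs.

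Slc32a1 encodes VGAT, which loads GABA and glycine into vesicles, and lies at chr2:158610767-158615748, plus strand. Over all inhibitory neuron-like nuclei its levels were 117, 213 and 259 CPM in the WT mice, 105, 132 and 191 CPM in the GKO mice, 327 CPM in the J20;WT mouse and 302 CPM in the J20;GKO mouse. The J20 mice were above the other 6, and WT mouse 1 and GKO mouse 1 were the lowest of their groups. The mean level was 63.4-fold that of excitatory neuron-like nuclei (206 ± 84.9 CPM and 2.62 ± 0.895 CPM). By type the means ran from 257 ± 154 CPM in Vip-like and 221 ± 84.3 CPM in Pvalb-like, through Sst-like (214 ± 80.5 CPM) and Cck/Cnr1-like (187 ± 77.9 CPM), to 176 ± 85.5 CPM in Lamp5-like nuclei (SD, n = 8). No neighbours in this order differed beyond their spread over libraries. Of the 12 other types with a value in every library, Cajal-Retzius-like nuclei were highest, at 9.23 CPM.

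**Figure D3:**
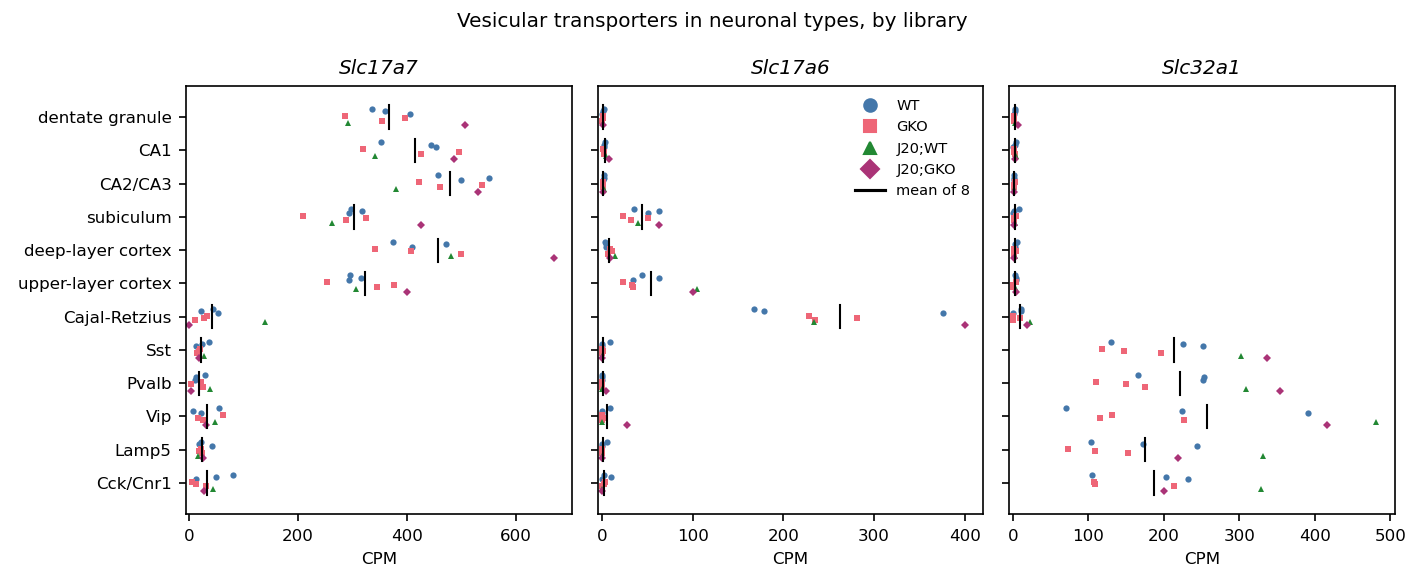
CPM on linear axes of Slc17a7, Slc17a6 and Slc32a1 (panels) in 12 neuronal types, 1 point a library coloured by group, with the mean of 8 as a line. Slc17a7 fills the excitatory rows, Slc32a1 the inhibitory rows, and Slc17a6 the Cajal-Retzius-like row, where the points run from 168 to 400.5 CPM.

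Other genes of the same pathways, from a list of 26, included enzymes and carriers with high levels. In astrocyte-like nuclei these included Glud1, the mitochondrial glutamate dehydrogenase, at 567 ± 63.4 CPM, and Slc7a11, the cystine and glutamate exchanger, at 456 ± 89.8 CPM. In excitatory neuron-like nuclei they included Slc25a12, a mitochondrial aspartate and glutamate carrier, at 139.6 ± 9.03 CPM, and Slc38a2, a neutral amino acid carrier that takes up glutamine, at 136 ± 11.4 CPM. In inhibitory neuron-like nuclei, Gad2 and Gad1, which make GABA, had 396 ± 47.9 CPM and 308 ± 28.2 CPM (SD, n = 8 for each).

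The genes most like each member over the types were found by the Pearson correlation of log2(mean CPM + 1) over 17 types among 8099 genes. The types share libraries and were formed from these genes, so the coefficients are a description. Slc17a7 was closest to Neurod2 (0.97) and Crym (0.96), Slc32a1 to Gad2 (0.98) and Dlx1as (0.97), Glul to Pon2 (0.96) and Selenop (0.95), and Slc1a3 to Apoe (0.94) and Glmp (0.94). Slc1a2 was closest to Tagln3 (0.94) and Rorb (0.92), Slc6a11 to Clu (0.91) and Plcd4 (0.87), Slc17a6 to Plxnd1 (0.80) and Tbr1 (0.78), and Slc1a1 to 4430402I18Rik (0.98) and Ptprr (0.94).

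Whether loss of Gsap changed these genes was asked by comparing the 3 GKO with the 3 WT mice. None of the 8 genes passed the threshold in any type, except that Slc1a3 in subiculum-like neurons did when the replicate number was added as a block (log2 fold change 1.33, edgeR adjusted p = 0.0301, against 0.9981 without it). In their leading types the differences were about the size of their SE or smaller. For Slc1a2, Slc1a3, Slc6a11 and Glul in astrocyte-like nuclei, the log2 fold changes, GKO minus WT, were 0.01 (SE 0.14), 0.10 (SE 0.13), -0.14 (SE 0.14) and 0.14 (SE 0.14). They were -0.15 (SE 0.16) for Slc1a1 in OPC-like, 0.07 (SE 0.31) for Slc17a6 in Cajal-Retzius-like, -0.08 (SE 0.14) for Slc17a7 in CA2/CA3-like and -0.36 (SE 0.54) for Slc32a1 in Vip-like nuclei. UMIs were summed per mouse and type and fitted with edgeR's quasi-likelihood test, and a gene was called at a Benjamini-Hochberg adjusted p under 0.05 over all genes of the type if its log2 fold change was also past 0.3 in either direction. Of 136 pairs of a gene and a type, 43 had too few counts, 93 were tested and 0 were called, beside 0.000666% of all 150103 tests. At an unadjusted p under 0.05 there were 11 by edgeR and 6 by DESeq2, which also called 0, beside 2.21% and 0.766% of the tests of all genes. The lowest adjusted p by edgeR was 0.998, and the SE of the 93 tests ran from 0.10 to 0.87, with a median of 0.26. In data simulated for astrocyte-like nuclei, edgeR called 0% of genes changed by 0.5 in log2 and 51.55% of those changed by 1. The shares were 25.51% and 77.55% for dentate granule-like nuclei, and 5.682% and 40.86% for Pvalb-like ones. Of the edgeR calls in these 3 simulations, 10.71%, 8.182% and 4.444% were false, in the same order. The absence of calls therefore does not show that a gene was unchanged. None of the 252 tests of 25 of the 26 pathway genes passed either, with 6 at an unadjusted p under 0.05 by edgeR and 2 by DESeq2, which called 0, beside the same 2.21% and 0.766% of all genes.

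**Figure D4:**
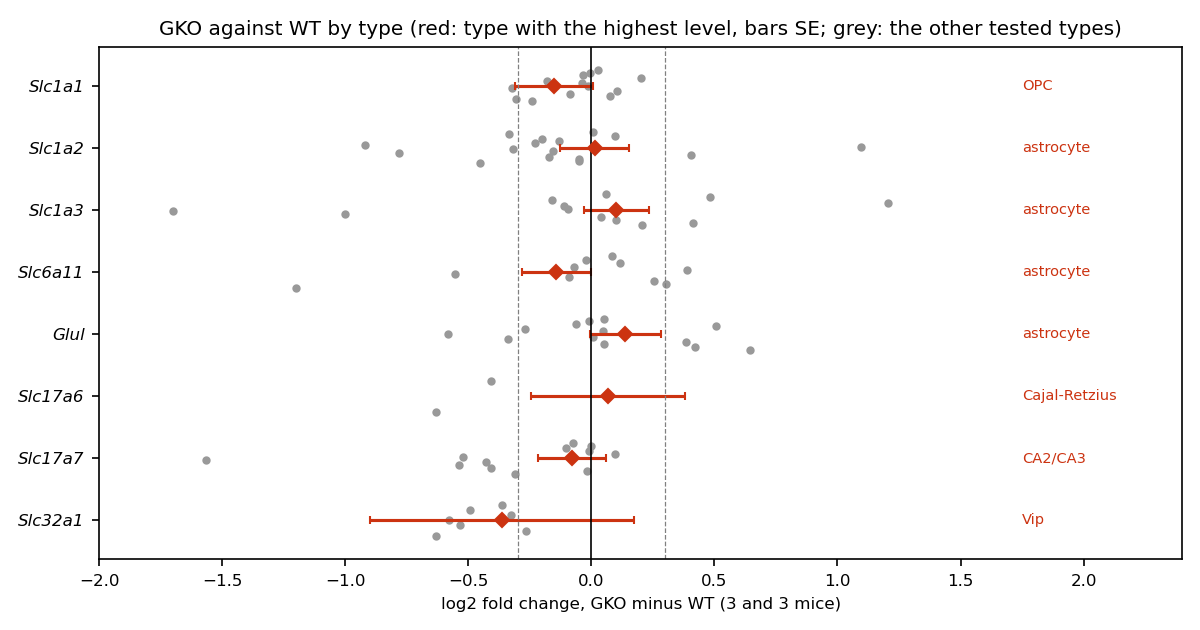
Log2 fold changes of the 8 genes, GKO minus WT (3 mice each), from edgeR. Red diamonds with SE bars mark the type where each gene is highest, grey points the other tested types, and dashed lines the fold threshold of 0.3. The red diamonds lie between -0.36 and 0.14. Grey values run wider, also in types where a gene is high, as for Slc32a1 at -0.58 in Pvalb-like nuclei.

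Slc32a1 had a negative log2 fold change in 5 of 5 inhibitory types, of -0.58 to -0.27, none of which passed the threshold. The mice behind these values are the same 6. Of the 93 edgeR tests of the members, 60 gave a negative log2 fold change and 33 a positive one, and their median was -0.0746. The share of all genes negative in each of the 5 inhibitory types is not given here. Without WT mouse 3, the value in Vip-like nuclei turned from -0.36 to 0.31. In Pvalb-like nuclei, with the lowest value, the levels were 166, 254 and 252 CPM in the WT mice and 111, 150.2 and 175 CPM in the GKO mice, which overlapped, and the edgeR adjusted p was 0.9994. Over all inhibitory neuron-like nuclei the log2 difference of the means was -0.15 between the mice of the first date and -0.56 between those of the second.

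The lowest unadjusted p of the 93 edgeR tests, 0.00845, belonged to Slc1a2 in Sst-like nuclei (log2 fold change -0.92 (SE 0.31), adjusted p = 0.9999). The levels were 103, 38.0 and 76.0 CPM in the WT mice and 42.8, 34.1 and 37.8 CPM in the GKO mice. The astrocyte markers there summed to 172, 41.7 and 84.4 CPM in the WT mice and 82.3, 74.6 and 47.2 CPM in the GKO mice, and WT mouse 1 was highest in both. In CA1-like neurons Slc1a2 had 68.1, 73.1 and 64.9 CPM in the WT mice and 51.1, 55.1 and 56.6 CPM in the GKO mice (log2 fold change -0.33 (SE 0.13), adjusted p = 0.9999 by edgeR). The part of the markers in these values was not tested.

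Values of WT and GKO mice did not overlap in 7 of 94 pairs of a gene and a type with at least 50 UMIs, 3 higher and 4 lower in GKO mice, beside 7.17% of all genes. These were Slc1a2 in CA1-like and Pvalb-like, Slc1a1 in Pvalb-like, Glul in Sst-like, microglia-like and fibroblast-like, and Slc6a11 in fibroblast-like nuclei. The count is near what all genes gave.

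The J20;GKO and J20;WT mice were set side by side without a test, since there was 1 mouse of each. Of 58 pairs of a gene and a type with at least 50 UMIs, 34 had a log2 ratio past 0.3 in size, 17 higher and 17 lower in J20;GKO, and of all genes 46.2% were past it. With mean UMIs a nucleus in place of CPM the split was 30 higher and 7 lower. The 2 mice also differed in Xist and Ddx3y and in the date carried by the deposited names, so genotype cannot be told apart from these. The J20;WT value lay outside the range of the 6 mice without the transgene in 30 of 58 pairs and the J20;GKO value in 25, beside 46.1% and 34.7% of all genes. Transgene and age cannot be told apart in these mice.

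Slc17a7 was higher in the J20;GKO mouse in each of the 6 excitatory types measured, at log2 ratios of 0.38 to 0.80. Over excitatory neuron-like nuclei it had 321 CPM (95% interval 311 to 332) in J20;WT and 489 CPM (95% interval 476 to 502) in J20;GKO, with exact Poisson intervals that cover counting error only. The 6 mice without the transgene lay from 309 to 431 CPM, so the J20;GKO value was above them and the J20;WT value within. The log2 ratio was 0.60, and 17.0% of all genes had one above 0.3 in these nuclei. The 10 excitatory markers summed there to 2365 CPM in J20;WT, 2677 CPM in J20;GKO and 2604 to 2985 CPM in the other 6 mice. Their sum was also higher in J20;GKO than in J20;WT in each of the 6 types, and their part was not tested. The share of all genes higher in each of the 6 types is not given here. Slc17a6 over the same nuclei had 11.4 CPM in J20;WT and 25.5 CPM in J20;GKO. In upper-layer cortex-like neurons both J20 mice, at 105 and 100.5 CPM, were above the 23.2 to 62.2 CPM of the other 6. These neurons were 89 nuclei of the J20;WT mouse and 219 of the J20;GKO mouse.

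Slc1a3 was lower in the J20;GKO mouse in dentate granule-like neurons, at 27.7 CPM (95% interval 22.5 to 33.6) against 69.7 CPM (95% interval 62.5 to 77.5) in J20;WT. The 6 other mice lay between, from 46.8 to 61.6 CPM, and the log2 ratio was -1.33. The 10 astrocyte markers summed in these neurons to 298 CPM in J20;GKO, 419.6 CPM in J20;WT and 567 to 831 CPM in the other 6. Which of the markers held these sums was not examined. In astrocyte-like nuclei, Slc1a3 and Slc1a2 of both J20 mice lay within the range of the 6 mice, at log2 ratios of -0.14 and 0.04. A Lamp5-like ratio of -2.61 for Slc1a2 came with 389 CPM in J20;WT, where the astrocyte markers summed to 381 CPM against 22.4 to 153 CPM in the other 7 libraries. The part of the markers was not tested.

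Both J20 values were above the 6 mice in 9 of the 58 pairs and below them in 5, beside 8.69% and 4.70% of all genes. Glul in astrocyte-like nuclei was 719.6 CPM in J20;WT and 907 CPM in J20;GKO, below the 968 to 1261 CPM of the 6. In inhibitory neuron-like nuclei Slc32a1 was 327 and 302 CPM, above the 105 to 259 CPM of the 6. In dentate granule-like neurons Slc1a1 was below them in both, at 133 and 138 CPM against 162 to 182 CPM, and Slc1a2 above, at 141 and 174 CPM against 111 to 126 CPM.

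**Figure D5:**
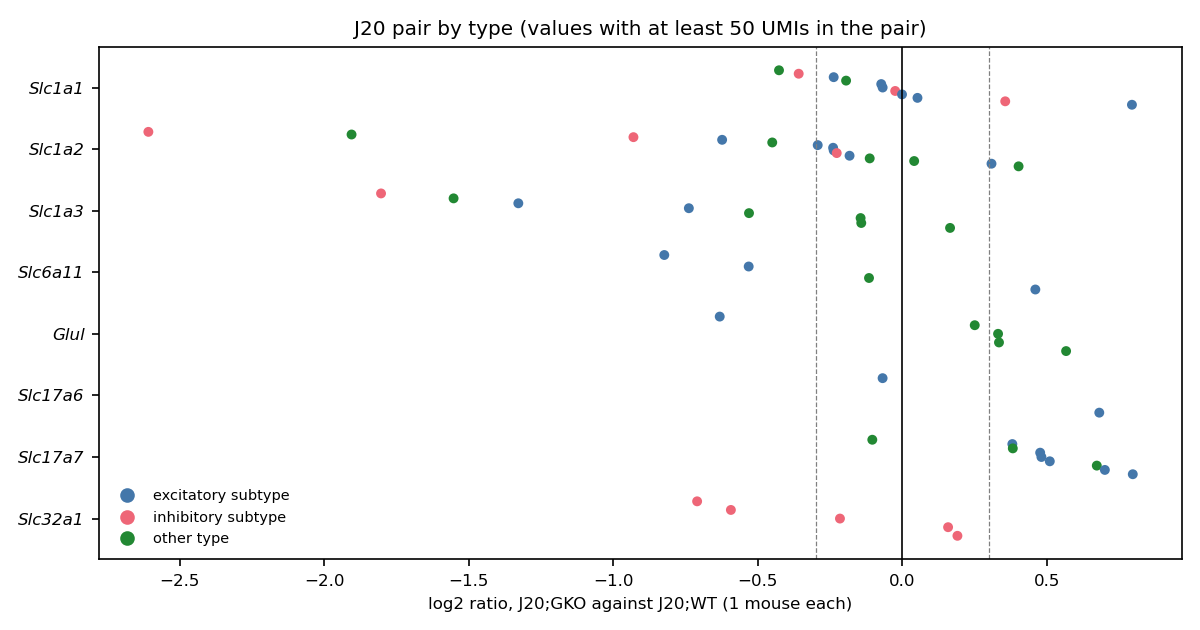
Log2 ratio of CPM, J20;GKO against J20;WT (1 mouse each, no error can be given), for each gene (rows) and type (points) with at least 50 UMIs in the pair, coloured by class. Slc17a7 lies right of 0.3 in the 6 excitatory types, and the leftmost points are Slc1a2 and Slc1a3 in Lamp5-like and fibroblast-like nuclei and Slc1a3 in dentate granule-like neurons.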

How the data were processed

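Nuclei of 8 mouse hippocampi were sequenced with a droplet method. The deposited values are UMI counts per gene and barcode, which the authors made with Cell Ranger on the mm10 genome (GRCm38). Seurat 3.0 and R 3.6.2 appear in the submitters' processing notes. Whether intronic reads or strand were used in counting is not given in the sources used here. Nuclei with at most 5% mitochondrial UMIs and 200 to 7500 genes were kept, as in the study. They were normalized per library with sctransform 0.4.2, integrated with Seurat 5.3.0 on 2994 features (3000 less the members among them) and 30 principal components, and clustered at resolution 0.8. Excitatory, inhibitory and astrocyte-like nuclei were clustered again at resolutions 0.1, 0.3 and 0.1. A cluster was named from marker lists that held none of the 8 genes. The way markers decide a name was completed after clusters had been seen, the CA2 and CA3 lists were merged after subclusters had been seen, and astrocyte subclusters with more than 25% doublet calls (328 nuclei) were left out of the type. Scrublet, run in scanpy 1.11.5, marked 1 and 0 nuclei in WT mouse 1 and GKO mouse 1 and so did not work there, and marked 3.45 to 6.50% elsewhere. Other clusters and subclusters with more than 25% doublet calls took no name, and no nucleus was removed for its own call. Pairs of libraries shared at most 27 barcodes.

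Counts were summed per mouse and type. The comparison of GKO with WT used the robust quasi-likelihood test of edgeR 4.0.16 with TMM scaling and filterByExpr in R 4.3.3, in types with at least 10 nuclei in each mouse, with Benjamini-Hochberg adjustment over all genes of a type. DESeq2 1.42.0 was an alternative. The edgeR and DESeq2 fits of WT and GKO mice were tested on simulated data for astrocyte-like, dentate granule-like and Pvalb-like nuclei, and the fits with a block or date term were not. Exact intervals used scipy 1.17.1. A J20 ratio used a prior count of 0.5.

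The text names the 8 genes, for each the genes most like it over types (the first 2 of the 3 found, among genes with at least 50 CPM in 1 type), the 3 pathway genes with the highest level in astrocytes, excitatory and inhibitory neurons (some of these are not reported here), markers and sex-linked genes used as checks, and overlapping genes. Genes leading a cluster were named after their values had been seen. The members and lists were chosen with earlier results of these data known.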

Additional observations from a re-analysis of the deposited data

Results flagged for a closer look

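For 2 genes, all GKO mice were on one side of all WT mice in 1 type and on the other side in another. The difference between the types was not tested in either case. Slc1a2 was higher in GKO mice in Pvalb-like nuclei, at 34.2, 21.1 and 28.6 CPM in the WT mice and 116, 40.4 and 50.004 CPM in the GKO mice, a difference of mean log2 CPM of 1.155. It was lower in CA1-like neurons, by the same measure -0.34. The Pvalb-like values rest on 83 UMIs over 8 libraries, and the 10 astrocyte markers there summed to 313, 241 and 315 CPM in the WT mice and 348, 300.4 and 347 CPM in the GKO mice. Over the 8 libraries Slc1a2 in Pvalb-like nuclei stood at 0.545 ± 0.357% of its astrocyte-like level. The median astrocyte marker stood at 0.655%, with Slc1a2 above it in 5 of 8 libraries. The part of the markers was not tested.

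Glul was higher in GKO mice in microglia-like nuclei, with a difference of 0.48 from 274, 286 and 173 CPM in the WT mice and 359, 338 and 299.7 CPM in the GKO mice. In fibroblast-like nuclei the difference was 0.76, with 480.2, 435 and 217 CPM in the WT mice and 698, 581 and 543 CPM in the GKO mice. In Sst-like nuclei it was -0.65, with 41.9, 34.4 and 47.3 CPM in the WT mice and 23.0, 23.0 and 32.7 CPM in the GKO mice, on 213 UMIs over 8 libraries. None of these passed the edgeR threshold, and 7.17% of all genes had groups that did not overlap.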

How the results depend on the processing

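The count of member calls between GKO and WT mice was 0 with each mouse left out in turn (range 0 to 0) and under every other alternative but the replicate block, which gave 1, Slc1a3 in subiculum-like neurons. There the levels were 13.8, 13.5 and 6.17 CPM in the WT mice and 49.7, 26.8 and 9.77 CPM in the GKO mice, the groups overlapped, and the 10 astrocyte markers summed to 136, 80.8 and 49.4 CPM in the WT mice and 102, 89.2 and 52.7 CPM in the GKO mice. The edgeR log2 fold change was 1.33 (SE 0.29) with the block (adjusted p = 0.0301) and 1.21 (SE 0.63) without it (adjusted p = 0.9981). Without the block it was 0.63 when GKO mouse 1 was left out and 0.40 when the top 6% of doublet scores were removed. The block changed no other call of a member. Over all genes, edgeR called 1, DESeq2 9 and the replicate block 64. The replicate numbers were not taken to pair the mice: same-numbered mice correlated in their deviations from the group means above 0.1 for every pair in 9 of 17 types, at -0.00833 to 0.538, and every mouse was closest to its own number in 5 of 17 types. The pair numbered 1, which shares a date and high Xist, ran from 0.114 to 0.538, pair 2 from -0.00833 to 0.219 and pair 3 from 0.104 to 0.255. The main fit has no term for date or pair. In edgeR, 4.97% of all tests had an unadjusted p under 0.05 with the block and 2.21% without it. With date as a term, the lowest adjusted p of a member was 0.298, for Slc1a2 in Sst-like nuclei. Of the alternative fold changes in leading types, 114 kept their direction and side of the threshold and 9 turned, none past the threshold. With 1 mouse left out, the log2 fold change ran from -0.10 to 0.078 for Slc1a2, -0.13 to 0.52 for Slc17a6, -0.16 to 0.0050 for Slc17a7 and -0.90 to 0.31 for Slc32a1. Slc17a6 in Cajal-Retzius-like nuclei was at -0.0062 when nuclei had at least 1000 genes. Of the alternative ratios between leading and next types, 91 moved by less than 1 SD and 9 by more or across 0. By mean UMIs a nucleus, the log2 ratio was -1.67 for Slc1a1, 0.75 for Slc17a6, 0.88 for Slc17a7 and -0.55 for Slc32a1. The Slc32a1 ratio of Vip-like to Pvalb-like nuclei ran from -0.042 to 0.22 without single libraries. With the 8 genes kept for clustering, the astrocyte to fibroblast ratio was 6.25 for Slc1a2 and 6.28 for Slc6a11. Only 136 CA2/CA3-like nuclei took that name there. Sst-like subclusters held 277 and 54 nuclei in place of 539, and Pvalb-like ones 239 and 137 in place of 167. A Lamp5-like one held 90 in place of 280. A subcluster with Agbl1, Gfra1 and Tll1 among its leading genes was Sst-like in the main clustering and Pvalb-like in this one. Types of that clustering are therefore not the same nuclei, and results of Sst-like and Pvalb-like nuclei rest on the main names. The cause of these changes was not tested. All 70 alternative shares of Slc17a6 moved by less than 1 SD. In the J20 pair, 28 of 54 values were past 0.3 with the top 6% of doublet scores removed. Keeping the doublet-rich astrocyte subclusters, an alternative chosen after seeing the data, changed no direction. Slc17a6, Slc6a11 and Slc32a1 are limited by depth outside their leading types, and 43 of the 136 pairs of a gene and a type had too few counts to test.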

Other observations

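Nuclei that took no name also held members. An unnamed cluster of 58 nuclei, with Bmp4, Gpr17, Enpp6 and Bcas1 among its leading genes, had 717 CPM of Slc1a1, against 218 CPM in OPC-like nuclei, and 46% of it was called doublets. A cluster of 627 nuclei held all 3 vesicular carriers, with 143 CPM of Slc32a1, 67.8 CPM of Slc17a7 and 54.9 CPM of Slc17a6. In a cluster of 475 nuclei, Slc1a2 stood at 701 CPM and Slc1a3 at 27.3 CPM, beside 345 CPM of Slc17a7. An inhibitory subcluster of 30 nuclei, led by Agtr1b, had 89.2 CPM of Slc6a11. These clusters were chosen after their values had been seen, and the values are pooled over libraries.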
